A study of Mus musculus with 4 samples.

Results

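Beta-actin and the proteins that build, cut and cap actin filaments were read on 4 single-channel expression arrays of mouse prefrontal cortex. The genes are Actb, Actg1, Capzb, Capza1, Capza2, Cfl1, Gsn, Pfn1, Pfn2 and Tmsb4x, 10 of 8251 genes with a probe set of 1 named gene. They were chosen by name, through the platform annotation, after the differences between these same arrays were known: Actb and Capzb stood among the largest falls, and the beta-actin control probe sets of the array moved the other way. Differences of these genes between the groups are therefore given as a description. A count of their calls in the fit across all probe sets is given once, and nothing is read from it. The 10 genes were read by 13 probe sets, 2 for Actb, 3 for Capzb and 1 for each of 8 others. The array also carries 3 control probe sets for beta-actin, placed at the 5′ end, the middle and the 3′ end of the transcript, which brings the total to 16. A further 3 control probe sets carry the Actb name but are built for the opposite strand. They read between 23 and 81.3 on every array and were not counted.

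The controls were female FVB/N mice, and the other group was female mice overexpressing human synaptic acetylcholinesterase (AChE), the enzyme that splits acetylcholine. Each array held total RNA pooled from 4 mice, with 2 pools per group, named here control pools 1 and 2 and transgenic pools 1 and 2. The labels give no age, and neither the promoter that drives the transgene nor the strain background of the transgenic mice. Whether separate mice went into the 2 pools of a group is not stated, so the spread between these pools may be technical. SDs give that spread for 1 probe set. SEs come from the fit across all probe sets and also draw on the spread of other probe sets of like intensity. Strain and transgene cannot be told apart here. Median intensity lay between 86.6 and 88.2 on the 4 arrays, and precision is limited by the small number of arrays. Even where the groups do not overlap, an exact permutation test of these pools cannot give a two-sided p under 0.333. Groups without overlap are therefore only described, and their share over all probe sets was not counted.

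Actin monomers assemble into filaments that grow at the barbed end and shrink at the pointed end. Profilin loads monomers for growth and thymosin beta-4 holds them in reserve. Capping protein, a dimer of an alpha and a beta subunit, closes the barbed end, and cofilin and gelsolin cut filaments. In neurons these filaments shape dendritic spines and growth cones, and the beta and gamma isoforms are the cytoplasmic actins of brain. Beta-actin RNA is also widely used as a loading reference in expression studies.

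Transcription of several actin genes is controlled by serum response factor, which binds the CArG box. RefSeq promoter windows (assembly GRCm38.p6, 250 bases before to 50 after each start) were matched for 9 of the 10 genes, with 11 windows in all, 3 of them for Gsn. Actb had none. A CArG box was found on either strand in 1 of the 11 windows, that of Actg1, and in 1.63% of 32851 windows of all genes. The CCAAT motif, whose letters can lie inside a CArG box, was found on either strand in 4 of the 11 windows and in 37.4% of all windows. The motif TATAAA was found in 0 of the 11 and in 13.6% of all. The Actg1 stretch is printed because it is the member window that holds the box, and because the box is the site of the serum response factor genes described further on. It runs over 120 bases to the last base before the start, on the minus strand at chr11:120348496-120348615. The CArG box, at bases 90 to 81 before the start, is in capitals.

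Actg1: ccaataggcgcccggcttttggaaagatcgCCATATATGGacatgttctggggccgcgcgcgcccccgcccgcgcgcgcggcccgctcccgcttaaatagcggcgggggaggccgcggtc

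The probe sets named for Actb were lower in the transgenic pools. Intensity at 95705_s_at was 2035 and 2506.2 in controls and 380.9 and 362.9 in transgenic pools. Both transgenic pools lay far below both control pools, and the transgenic pools differed little from each other. The mean fell from 2271 ± 333 to 372 ± 12.7 (SD, n = 2 pools per group), a log2 change of -2.60 ± 0.14 (SE). Intensity at 101578_f_at was 1455.4 and 2153.5 in controls and 908.7 and 672 in transgenic pools. The groups again did not overlap, although the control pools differed from each other by more than the transgenic pools did. The log2 change there was -1.18 ± 0.20 (SE). By the array maker's convention, the endings _s_at and _f_at mark probe sets whose probes can match several transcripts or members of a gene family. Probe sequences were not used here, so which transcripts these probes match was not tested.

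The 3 beta-actin control probe sets were higher in the transgenic pools. The 3′ probe set read 3745.1 and 3634.2 in controls and 8506.8 and 8124.8 in transgenic pools (log2 change 1.17). The middle probe set read 2491.4 and 2402.6 against 5585.6 and 6339.3 (log2 change 1.28). The 5′ probe set read 1969.8 and 2102.4 against 3416.2 and 4874.1 (log2 change 1.004). At each of the 3 positions both transgenic pools lay above both control pools, and the widest gap between pools of 1 group was that of the transgenic pools at the 5′ end. The same gene name thus carried log2 changes from -2.60 to 1.28, a span of 3.885. The probe set 101578_f_at is listed under the source sequence that names the control probe sets. Its intensity was 0.532 and 0.794 of the mean of the 3 control probe sets in the control pools, and 0.156 and 0.104 of it in the transgenic pools. For 95705_s_at these ratios were 0.744 and 0.924 in controls and 0.0653 and 0.0563 in transgenic pools. These ratios compare arrays only, since different probes respond differently to the same amount of RNA.

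Actg1, the gamma cytoplasmic actin, did not separate the groups. Its probe set 96573_at read 5074.1 and 5975.1 in controls and 5439.6 and 5933.4 in transgenic pools. Both transgenic values lay between the control values, and the log2 change was 0.05 ± 0.11 (SE).

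**Figure D1:**
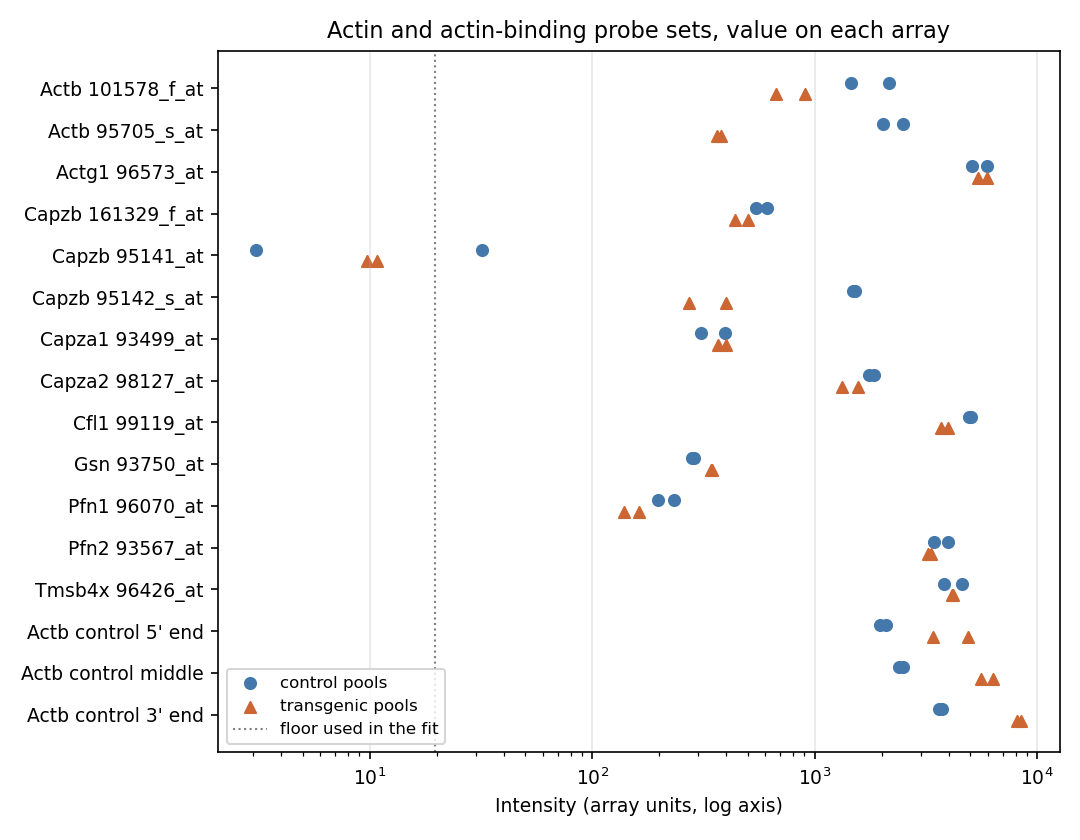
Intensity of the 16 probe sets on each of the 4 arrays, on a log axis, with circles for control pools, triangles for transgenic pools and a dotted line at the floor of 19.675 used in the fit. The pools separate widely at both Actb probe sets, at Capzb 95142_s_at and, in the opposite direction, at the 3 beta-actin control probe sets, while Actg1 and Tmsb4x overlap.

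The capping protein genes differed in size of change, and Capzb did so between its own probe sets. Capzb, which encodes the beta subunit, read 1485 and 1512.1 in controls and 400.2 and 272.6 in transgenic pools at 95142_s_at. The control pools were nearly equal and both transgenic pools were far lower, a 4.54-fold difference (log2 change -2.18 ± 0.18 SE). At 161329_f_at Capzb read 610.7 and 542.8 against 502.5 and 440.7 (log2 change -0.29 ± 0.15 SE). The transgenic pools lay below the control pools there too, by much less. The third Capzb probe set, 95141_at, read 32.1 and 3.1 against 10.8 and 9.7, with 3 of 4 arrays at or below the floor. It was too dim for the intensity filter and stayed out of the test. Capzb is known to be spliced into more than 1 isoform. The sources used here do not give which of them each probe set reads.

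The alpha subunits of the same dimer are encoded by Capza1 and Capza2. Capza2 read 1856.1 and 1763.9 in controls and 1331.1 and 1571.6 in transgenic pools (log2 change -0.32 ± 0.13 SE), without overlap. Capza1 read 394.6 and 309.3 against 367.3 and 400.4 (log2 change 0.13 ± 0.17 SE). Its groups overlapped, and its log2 change was 0.31 without control pool 1 and -0.04 without control pool 2. Both alpha subunits thus had log2 changes nearer 0 than Capzb had at 95142_s_at, while at 161329_f_at the log2 change of Capzb (-0.29) was close to that of Capza2.

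Among the severing proteins, Cfl1 (cofilin), which disassembles older filaments, read 4950.8 and 5041.9 in controls and 3989.7 and 3716.6 in transgenic pools. The groups did not overlap, and the log2 change was -0.38 ± 0.10 (SE). Gsn, the calcium-dependent severing and capping protein gelsolin, read 286.5 and 280.1 against 346.2 and 342.1. The transgenic pools were higher, with a log2 change of 0.28 ± 0.15 (SE), and pools of a group were nearly equal. Gsn is also a gene of oligodendrocytes, and 0 of 6 tested oligodendrocyte markers were called by limma (1 had an unadjusted p under 0.05). All probe sets of the listed oligodendrocyte markers, tested or not, summed to 4977 and 6259 in controls and 4571 and 5180 in transgenic pools. These sums overlapped between the groups, 2 of the 6 tested markers lay below 0 and their median log2 change was 0.10. In tissue RNA, a change in the number of cells of a type and a change in RNA per cell cannot be told apart.

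Of the monomer-binding genes Pfn1 had the largest log2 change and Tmsb4x the smallest. Pfn1, the profilin found in most tissues, read 198.5 and 233 in controls and 161.6 and 138.7 in transgenic pools (log2 change -0.52 ± 0.19 SE). Its groups did not overlap. Pfn2, the profilin most abundant in brain, read 3964.9 and 3447.6 against 3239.7 and 3321.5 (log2 change -0.17 ± 0.11 SE), also without overlap. Tmsb4x, which encodes thymosin beta-4, read 4583.7 and 3810.2 against 4124.3 and 4198.5 (log2 change -0.01 ± 0.12 SE), and both transgenic values lay between the control values. Tmsb4x and Pfn1 are also abundant in microglia, the immune cells of brain. Of 8 tested microglia markers 0 were called higher and 1 lower by limma, and 3 had an unadjusted p under 0.05. Of these markers 7 lay below 0, with a median log2 change of -0.32. All probe sets of the listed microglia markers, tested or not, summed to 3015 and 3060 in controls and 2680 and 2359 in transgenic pools. The part of these markers in the Pfn1 values was not tested.

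Of the 13 named probe sets, 12 passed the intensity filter and entered a limma fit across 7453 probe sets. At an adjusted p below 0.05, 4 of the 12 were called lower (both of Actb, Capzb 95142_s_at and Cfl1) and 0 higher. Over all tested probe sets 4.56% were called lower and 5.46% higher. Since the genes were picked on this same contrast, nothing is read from that count. Their median log2 change was -0.31, against -0.03 for all tested probe sets. Of the 12, 9 lay below 0, beside 54.6% of all genes. For the same reason, nothing is read from this median or this share. The number called fell to 2 without transgenic pool 2 and to 3 when any other single pool was left out. It was 2 without the intensity trend and 0 by limma without the filter, where 6 had an unadjusted p under 0.05.

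**Figure D2:**
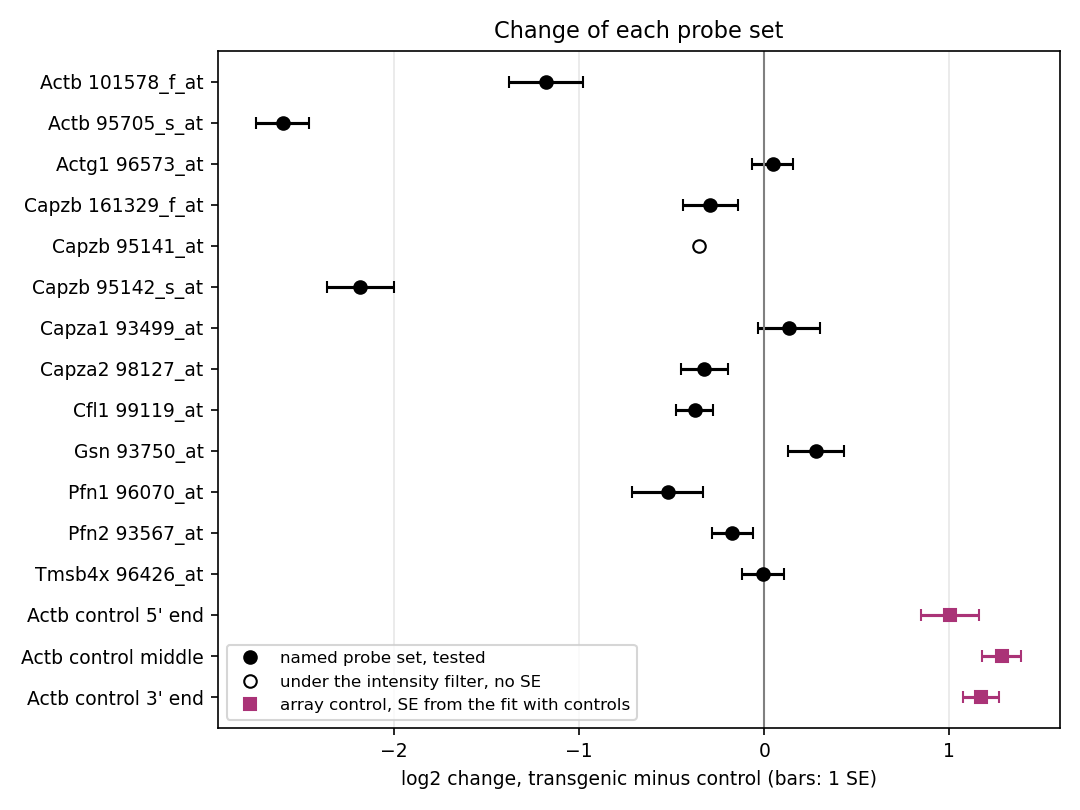
The log2 change of each probe set, transgenic minus control, with bars of 1 SE. Black circles are tested named probe sets, the open circle is the Capzb probe set under the filter, and squares are the beta-actin controls, whose SE comes from a fit that includes control probe sets; both Actb probe sets lie left of 0 and the 3 controls right of it, near 1.

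The span between probe sets of 1 gene can be set beside that of other genes. Of 909 genes with 2 or more tested probe sets, the median span of log2 changes was 0.355 and the upper quartile 0.645. The tested probe sets of Capzb spanned 1.89, with 41 of the 909 genes above it. Those of Actb spanned 1.42 without the controls, with 72 genes above it. Actb and Capzb were chosen for large falls on these same arrays, and those falls enter their spans. Nothing is therefore read from these ranks. A called rise and a called fall under the same name occurred in 5 of the 909 genes. The Actb controls stand outside that count because control probe sets were not part of the fit.

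The position of the control probe sets along the transcript gives a ratio within each array. For beta-actin it is made from control values that were known when the genes were chosen. RNA is labelled from its 3′ end, so a higher ratio of 3′ to 5′ signal goes with shorter labelled fragments. For beta-actin the ratio was 1.90 and 1.73 in controls and 2.49 and 1.67 in transgenic pools. The group means were 1.82 ± 0.122 and 2.08 ± 0.582 (SD, n = 2 pools per group), so the groups overlapped and transgenic pool 1 was the highest. For Gapdh, a glycolytic enzyme with the same set of control positions, the ratio was 0.964 and 0.839 in controls and 1.108 and 0.985 in transgenic pools, so both transgenic pools lay above both control pools. The ratio of 3′ to middle signal of Gapdh was likewise higher in the transgenic pools, at 0.983 and 0.908 against 0.820 and 0.770. For beta-actin that ratio was 1.503 and 1.513 in controls and 1.523 and 1.282 in transgenic pools, with overlap. With 2 pools per group an exact permutation test cannot give a two-sided p under 0.333, so no test was made. The mean 3′ to 5′ ratio of beta-actin in the transgenic pools was 1.15 times that of the control pools, 0.919 times without transgenic pool 1 and 1.37 times without transgenic pool 2. The array also has control probe sets for pyruvate carboxylase and the transferrin receptor, which were dimmer. Those for pyruvate carboxylase had log2 changes of -0.21 (3′ end), -1.19 and -1.38 (middle) and -0.43 (5′ end). The transferrin receptor had -0.92 at the 3′ end, and its other positions read near or under the floor. The part of RNA fragment length in the values of these control probe sets was not tested.

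The Gapdh control probe sets were lower in the transgenic pools at each position. They read 10267.7 and 9155.6 against 8472.6 and 7752.7 at the 3′ end (log2 change -0.26), and their log2 changes were -0.51 in the middle and -0.48 at the 5′ end. Spiked hybridisation controls, bacterial and phage RNAs added to every sample, had log2 changes between -0.18 and 0.24 over 9 probe sets, with a median of 0.002. Beta-actin and Gapdh, both common loading references, therefore moved apart on the control probe sets of the same arrays.

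**Figure D3:**
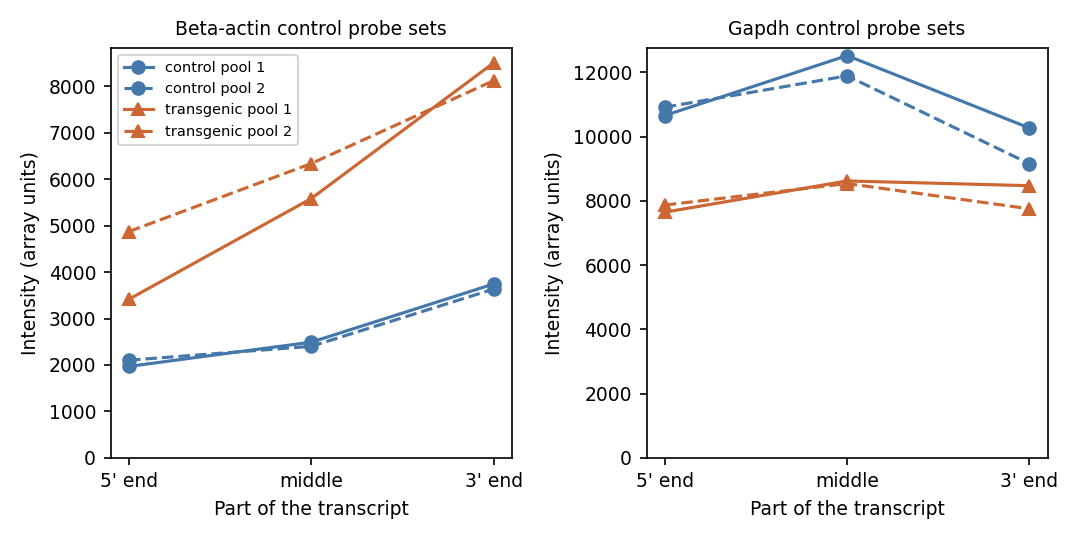
Intensity of the control probe sets for beta-actin (left) and Gapdh (right) at the 5′ end, the middle and the 3′ end of the transcript, with 1 line per array and axes starting at 0. The transgenic pools lie above the control pools at all 3 beta-actin positions and below them at all 3 Gapdh positions.

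Of 15 tested genes of a list of common reference genes 0 rose and 1 fell, 5 had an unadjusted p under 0.05, and log2 changes ran from -0.43 to 0.42 with a median of -0.07. The gene that fell was Ldha, lactate dehydrogenase A (3692.9 and 3954.7 against 2945.8 and 2739.3; log2 change -0.43 ± 0.11 SE, limma adjusted p = 0.0327). It was not called when any single pool was left out, with an adjusted p of 0.0541 to 0.168. Hprt, a purine salvage enzyme, had a log2 change of -0.07 ± 0.13 (limma adjusted p = 0.794). Tbp, the TATA-binding protein, had -0.26 ± 0.25 (limma adjusted p = 0.591). With every array scaled to the Gapdh control probe sets, the median log2 change of all tested probe sets shifted from -0.03 to 0.386. Under that scaling Cfl1 had 0.04, Capza2 0.10 and Pfn2 0.25, so their direction turned, as did that of Capzb at 161329_f_at (0.13) and of Tmsb4x (0.41). Actb at 95705_s_at had -2.18, Capzb at 95142_s_at -1.76 and the 3 beta-actin controls 1.42 to 1.70, so these kept their direction.

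The rest of the actin pathway was read through 9 lists of genes grouped by function, none of them among the 10 described so far. Of 169 listed genes 85 were tested, each at its brightest probe set, and 3 rose and 7 fell. These shares of 3.53% and 8.24% stand beside 5% and 4.49% of all 5701 tested genes. The rises include Diaph2, which passed the intensity filter only through its transgenic values. The median log2 change of the 85 was -0.01, against -0.04 for all tested genes, and 44 of them lay below 0. The count of 10 called genes was 5 without transgenic pool 1 and 3 without transgenic pool 2. It was 4 without the intensity trend, among them Diaph2, Myo10 and Fmnl1 of the 10. It was 0 by limma without the filter on dim probe sets, where 27 had an unadjusted p under 0.05. Of the 10, Arpc2 and Fmnl1 were called whichever pool was left out. Scaled to the Gapdh controls, 34 of the 85 were called higher and 1 lower.

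The Arp2/3 complex starts new filaments as branches on old ones, and its subunits moved both ways. Arpc2 rose, from 1408.1 and 1449.9 in the control pools to 2490.7 and 2258.2 in transgenic pools (log2 change 0.73 ± 0.11 SE, limma adjusted p = 0.00299). Its limma adjusted p was 0.0569 without the intensity trend and 0.109 without the filter, so the call was lost in both. Arpc1a fell, from 616.2 and 717 to 375.7 and 419.5 (log2 change -0.74 ± 0.15 SE, limma adjusted p = 0.0125). Arpc4 fell by 0.51 ± 0.12 on the log2 scale (limma adjusted p = 0.0215). Thus 1 of 6 tested subunits rose and 2 fell. Arpc1a had an adjusted p of 0.0836 without transgenic pool 1 and 0.0546 without transgenic pool 2. Arpc4 had 0.0663 without control pool 2, 0.0887 without transgenic pool 1 and 0.0652 without transgenic pool 2. Of 8 tested genes of the WASP and WAVE proteins, which switch the complex on, 0 were called by limma and 4 had an unadjusted p under 0.05. The smallest p was that of Cyfip2, a WAVE complex subunit, at a log2 change of 0.44 ± 0.12 (limma adjusted p = 0.0541).

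Formins extend unbranched filaments. Diaph2 read 19.1 and 30.6 in controls and 122.2 and 99.7 in transgenic pools (log2 change 2.17 ± 0.36 SE, limma adjusted p = 0.00472). With 1 control array at the floor and low signal in the other, its log2 change depended on the floor. That change fell to 1.12 with a floor at the 40th percentile. Both control values lay under the filter intensity of 49.38, so Diaph2 passed the filter only through its transgenic values. It was not tested when either transgenic pool was left out. Fmnl1 fell at 92483_g_at, from 509.8 and 459.3 to 228.6 and 216.4 (log2 change -1.12 ± 0.15 SE, limma adjusted p = 0.00136). Its other probe set, 92482_at, had -0.31 ± 0.24 (limma adjusted p = 0.473). In all, 1 of 7 tested formin, Ena/VASP and Spire genes rose and 1 fell.

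Among other severing and monomer-binding genes 0 of 10 rose and 2 fell, both coronins, which bind filaments and work with cofilin and the Arp2/3 complex. Coro2b fell from 1001.8 and 880.8 to 652.4 and 468.6 (log2 change -0.76 ± 0.17 SE, limma adjusted p = 0.0222, and 0.129 without transgenic pool 2). Coro1b fell from 527.2 and 599.9 to 368.3 and 366.9 (log2 change -0.61 ± 0.15 SE, limma adjusted p = 0.0277). Its adjusted p was 0.135 without control pool 2, 0.0989 without transgenic pool 1 and 0.116 without transgenic pool 2. Of the kinases and phosphatases that act on cofilin, 0 of 3 were called by limma and 1 had an unadjusted p under 0.05. That gene was Tesk1, with a log2 change of 0.50 ± 0.16 (limma adjusted p = 0.0882). Of the other capping and gelsolin-family genes 0 of 7 were called and 2 had an unadjusted p under 0.05. The smallest p was that of Eps8, a barbed-end capper, at 1.05 ± 0.35 (limma adjusted p = 0.0985). As for Diaph2, its control values (32.8 and 36.3) lay under the filter intensity, and it passed only through its transgenic values.

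Of 23 tested crosslinkers and membrane linkers 0 rose and 2 fell. Sptan1, the alpha spectrin of the membrane skeleton, read 2823.1 and 2866 in controls and 2127.2 and 2013 in transgenic pools (log2 change -0.46 ± 0.11 SE, limma adjusted p = 0.0251). It was not called when any single pool was left out, with an adjusted p of 0.0582 to 0.100. Actn1, an alpha-actinin that bundles filaments, fell by 0.56 ± 0.14 on the log2 scale at 104578_f_at (limma adjusted p = 0.0362). Its 2 other probe sets had -0.08 and -0.42 and were not called. The adjusted p of Actn1 was 0.112 without control pool 1, 0.0551 without transgenic pool 1 and 0.174 without transgenic pool 2. Of 17 tropomyosins and myosins 1 rose and 0 fell. Myo10, a motor of filopodia, rose from 90.5 and 91.4 to 154.9 and 186.5 (log2 change 0.90 ± 0.21 SE, limma adjusted p = 0.0278). Its adjusted p was 0.0664 without transgenic pool 1 and 0.158 without transgenic pool 2. The muscle-type actin genes Acta1, Acta2, Actc1 and Actg2 gave 0 calls by limma and 1 unadjusted p under 0.05. It was that of Actc1, the cardiac isoform, with 0.62 ± 0.20 (limma adjusted p = 0.0893).

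Of 14 tested genes of serum response factor, its cofactor Mrtfa and targets, 0 were called by limma and 4 had an unadjusted p under 0.05. The median log2 change was 0.05. The smallest p was that of Egr2, an activity-induced transcription factor, at 0.54 ± 0.16 (limma adjusted p = 0.0677). Srf itself was not among the tested genes.

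**Figure D4:**
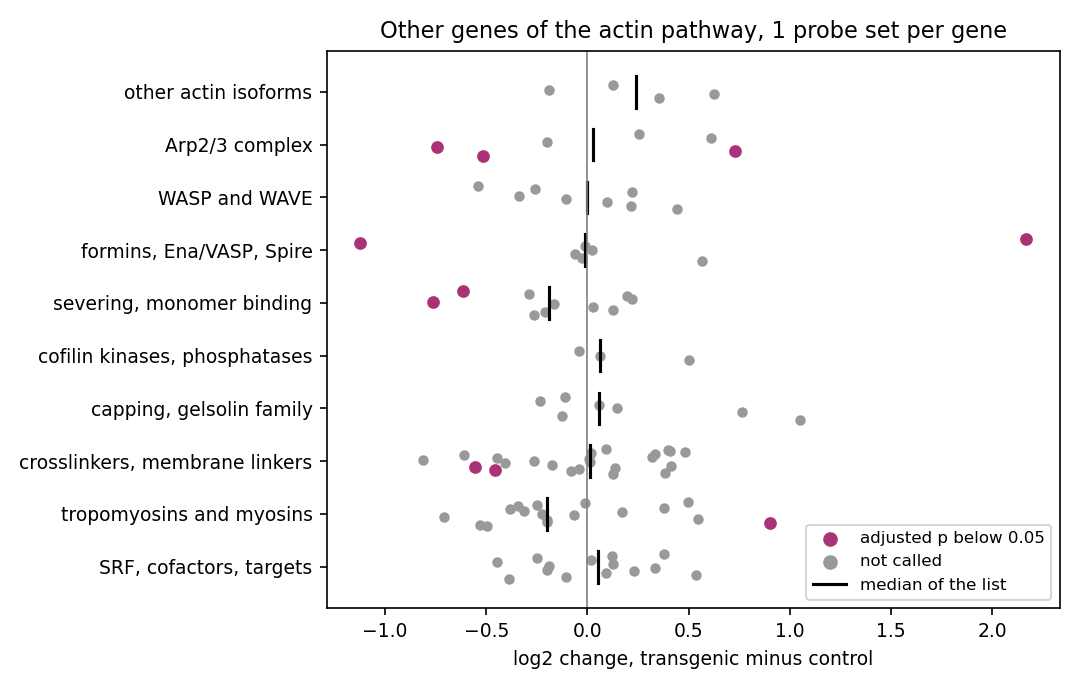
The log2 change, transgenic minus control, of each tested gene of the 9 actin-pathway lists and of the serum response factor list, with 1 probe set per gene. Coloured points have an adjusted p below 0.05, grey points were not called and black bars are list medians; the 3 called rises and 7 called falls lie in 5 of the 9 lists, and Diaph2 stands farthest to the right at 2.17.

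Markers of the cells in cortex were read on the same arrays. Of 8 tested neuron markers 0 rose and 1 fell by limma, and 3 had an unadjusted p under 0.05. Of these markers 7 lay below 0, with a median log2 change of -0.36. All probe sets of the listed neuron markers, tested or not, summed to 26999 and 26382 in controls and 21862 and 23802 in transgenic pools. Of 7 astrocyte markers 1 rose and 1 fell by limma, 5 had an unadjusted p under 0.05 and 5 lay below 0. Their median log2 change was -0.23. The gene that rose, Aqp4, read 36.7 and 47.5 in controls and 424.3 and 684.5 in transgenic pools. Both control values lay under the filter intensity of 49.38, so Aqp4 passed the filter only through its transgenic values. Of 5 endothelial markers 1 rose by limma, and 2 had an unadjusted p under 0.05. Of 4 smooth muscle and pericyte markers 0 were called by limma and 0 had an unadjusted p under 0.05. Both tested red blood cell genes rose. Hba-a1, an alpha-globin, read 2678.2 and 2325 in controls and 8257.2 and 6740.9 in transgenic pools. The part of blood or of neuron RNA in the actin values was not tested.

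The 5 probe sets whose 4 centred log2 values lay nearest those of Actb 95705_s_at were read from other families. They belonged to Pip5k1c, Meg3, Erdr1, Psap and Fgf1, with a root mean square distance of 0.119 to 0.381 log2 units over the 4 arrays. Pip5k1c, a lipid kinase whose product binds many actin regulators, was nearest, at 144.6 and 171.8 in controls and 30.3 and 30.5 in transgenic pools. Both transgenic values lay under the filter intensity of 49.38, so Pip5k1c passed the filter only through its control values. The same held for Fgf1, at 26.4 and 49.1 in transgenic pools. Psap, a lysosomal protein precursor, read 500.7 and 416.5 against 79.9 and 123.9. With 4 arrays in 2 groups, likeness mainly reflects a fall of similar size.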

How the data were processed

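The deposited values are intensities, 1 for each probe set on each array, and by their range they are linear. The sources used here give neither the unit nor the authors' summary method. The mean between the 2nd and 98th percentiles was 248.4 to 248.5 on every array, so the authors had scaled arrays to a common level, and values were used as deposited. Of 12488 probe sets, 66 controls were left out of the fit. Symbols were updated by gene identifier to RefSeq for 10817 of 10833 single-named probe sets.

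Values were floored at the 25th percentile (19.675) and log2-transformed. Probe sets with a mean log2 value above the 40th percentile (an intensity of 49.38) entered a fit with limma 3.58.1 under R 4.3.3 (eBayes with an intensity trend, two-sided, transgenic minus control, Benjamini-Hochberg over 7453 probe sets, threshold 0.05). The code of the fit was run on simulated data with log2 changes larger than most given here. That run checks the code and does not bear on smaller changes. The log2 changes of control probe sets are differences of group means. For the lists, the tested probe set of highest mean stood for a gene.

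Members and lists were chosen with earlier results of these data known. The result of 1 further list is not reported here, and its genes were left out of the pathway counts. Named list genes followed a rule: up to 3 called genes of smallest p in each direction, or the gene of smallest p where none was called, plus Gapdh, Hprt, Ppia and Tbp (Ppia was not used here). Alternatives were other floors, filters, scalings and priors, the replicate block, control probe sets in the fit, every probe set of a gene, and leaving out each pool.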

Additional observations from a re-analysis of the deposited data

How the results depend on the processing

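Over all probe sets 747 were called, against 48 without the filter on dim probe sets, 395 without the intensity trend, 2351 when scaled to the Gapdh controls and 387 to 745 when 1 pool was left out. Of the genes in the actin-pathway lists 10 were called, against 0, 4, 35 and 3 to 13 in the same order. Without the filter 27 of these genes had an unadjusted p under 0.05. The share of calls that were rises was 54.5%, and 95.5% when scaled to the Gapdh controls. Alternatives in the filter, trend, prior, block or use of control probe sets leave a member's log2 change as it is. Leaving out 1 pool can move it by at most about 1 SD between pools. The count that follows is therefore no measure of stability. Of 240 alternative values of the members' log2 changes, 222 lay within 1 SD between pools of the main value and 17 moved further. The remaining value was Cfl1 scaled to the Gapdh controls, the called member whose log2 change turned sign, from -0.38 to 0.044. Members that were not called also changed sign, Capza2, Pfn2, Tmsb4x and Capzb at 161329_f_at under that scaling, Tmsb4x under quantile normalization, and Capza1, Actg1 and Tmsb4x when 1 pool was left out. With the replicate block, 892 probe sets and 13 pathway genes were called. Nothing in the labels pairs pools of the same number, and the deviations of same-numbered pools correlated at 0.056 across tested probe sets. The ratio of 3′ to 5′ beta-actin signal, transgenic over control, was 1.15 from group means. It was 1.12 when means were taken of log2 values and turned back to a ratio, and 0.919 to 1.37 when 1 pool was left out.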
